A study of Homo sapiens with 16 samples.

Results

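The genes described are 40 that encode lysosomal hydrolases and their helpers, lysosomal membrane proteins and the transcription factor TFEB, measured in SK-N-SH cells exposed to risperidone. They were taken from a list by their platform symbol, and each was represented by the single-symbol probe set with the highest mean over all 16 arrays. All 40 were among the 18239 genes of the arrays, and 38 were bright enough to be tested. CTSZ, between 3.23 and 3.42 on the log2 scale, and IDUA, between 2.92 and 3.32, lay in the dimmest 25% of genes and were not tested.

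The SK-N-SH line comes from a human neuroblastoma, and its cultures mix neuroblast-like cells with flat, substrate-adherent ones. Risperidone is an antipsychotic that blocks dopamine and serotonin receptors, and it is a basic, lipophilic molecule of a kind that can collect in lysosomes. The 4 groups, of 4 arrays each, were cells without the drug and cells given 10 µM risperidone for 6, 24 or 48 h, all grown for 48 h beforehand. A confluence of 95% and at most 1% DMSO were given for all 4 groups. The first group is labelled untreated, whereas the protocol gives controls the vehicle, DMSO, and no harvest time was stated for it. The arrays of a group are labelled biological replicates with no account of separate cultures, so a p-value measures the spread between these samples, which may be technical. All values are log2 intensities, a change is a difference of log2 means between groups with its standard error, and a gene is said to rise or fall where limma's adjusted p over 13680 genes is under 0.05.

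Lysosomes are acidic organelles in which soluble hydrolases, most of them carried there by mannose 6-phosphate receptors, break down proteins, glycans, sulfated sugars and lipids. Their membrane proteins protect the membrane, export the products and release calcium, and the vacuolar proton pump keeps the lumen acidic. TFEB and its relatives MITF and TFE3 bind E-box motifs in the promoters of many of these genes, a set known as the CLEAR network, and are held in the cytoplasm by mTORC1 signalling when nutrients are plentiful.

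The promoters of the members that carry the motif are shown because genes that hold it both rose and fell in these cells. RefSeq promoters (GRCh38.p14, 250 bases before to 50 after each start) matched 29 of the 40 genes through 44 windows. The 2 motifs searched read the same on both strands, the E-box CACGTG and the longer core TCACGTGA, each match to which also contains an E-box. The E-box lay in 25% of the member windows, against 7.26% of all promoters of this length and 9.0% of those of the tested genes. The core lay in 13.6% of the member windows, against 0.980% and 1.54%. A match describes the letters of these windows and does not show that a factor binds there. The 5 genes with the core are listed first, with capitals for every match, each window running from 100 bases before to 10 after the start except that of LAMP1, which begins 200 bases before it. The windows of IDS and CTSC, the members with the largest rise and the largest fall against untreated cells, hold no match.

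LAMP1 (chr13:113297039-113297248, plus strand): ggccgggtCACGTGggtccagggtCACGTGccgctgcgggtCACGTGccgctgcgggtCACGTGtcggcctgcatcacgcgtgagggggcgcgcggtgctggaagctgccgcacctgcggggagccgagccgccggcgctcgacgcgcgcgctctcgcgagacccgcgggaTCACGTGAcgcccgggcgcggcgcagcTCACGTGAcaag
CTSA (chr20:45891235-45891344, plus strand): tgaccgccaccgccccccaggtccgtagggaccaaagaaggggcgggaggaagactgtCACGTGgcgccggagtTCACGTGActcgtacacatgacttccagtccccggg
GAA (chr17:80101481-80101590, plus strand): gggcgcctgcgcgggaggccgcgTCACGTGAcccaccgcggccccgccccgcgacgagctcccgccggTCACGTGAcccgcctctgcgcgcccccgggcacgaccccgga
MCOLN1 (chr19:7522524-7522633, plus strand): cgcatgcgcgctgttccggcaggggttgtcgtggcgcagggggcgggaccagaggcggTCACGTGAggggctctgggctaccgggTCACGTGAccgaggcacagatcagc
CLN3 (chr16:28492065-28492174, minus strand): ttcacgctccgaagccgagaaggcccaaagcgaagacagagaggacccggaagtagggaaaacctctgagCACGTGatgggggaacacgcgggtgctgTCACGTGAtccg
IDS (chrX:149505297-149505406, minus strand): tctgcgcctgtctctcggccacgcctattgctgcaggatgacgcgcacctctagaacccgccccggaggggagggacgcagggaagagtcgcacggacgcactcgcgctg
CTSC (chr11:88337727-88337836, minus strand): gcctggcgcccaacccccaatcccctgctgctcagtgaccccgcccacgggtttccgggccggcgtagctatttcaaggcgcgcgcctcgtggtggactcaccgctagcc

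Of these 5 core-bearing genes LAMP1 and CTSA fell at all 3 times, GAA fell at 6 h by its brightest probe set only, and MCOLN1 and CLN3 rose at all 3 times. The E-box without the core was found in windows of CD63, CTSD, CTSF, NEU1 and ARSB.

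**Figure D1:**
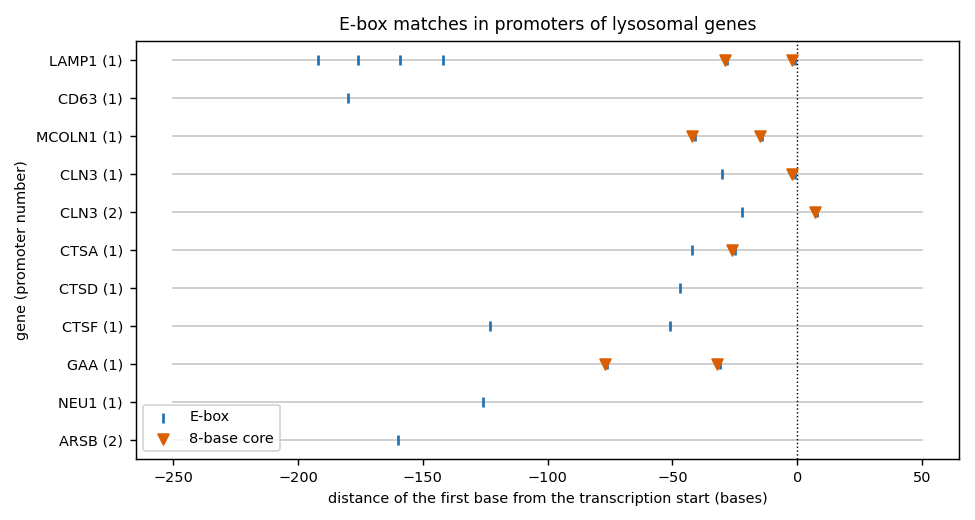
Distance of E-box matches (blue bars) and 8-base core matches (orange triangles) from the transcription start, in bases, in the member promoters that hold any. Core matches run from 77 bases before the start in GAA to 7 bases after it in the second promoter of CLN3.

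The arrays correlated at r = 0.996 to 0.999 within a group and at 0.968 to 0.978 between treated and untreated arrays, over the 13680 genes tested. Treated arrays differed from untreated ones in markers of the substrate-adherent, mesenchymal cells of the line: 17 of 18 fell at each time, with a median change of -3.37 at 6 h. Their summed level was 25210 to 28983 in untreated arrays, 11483 to 12384 at 6 h, 11806 to 12009 at 24 h and 11701 to 12429 at 48 h. PRRX1, a defining marker of these cells, averaged 9.07, 3.98, 3.96 and 3.86 in the same order. Of 15 adrenergic neuroblastoma markers 14 rose and 1 fell at 6 h, and their sum was 35437 to 36195 in untreated arrays, 44260 to 45284 at 6 h, 46671 to 47607 at 24 h and 49734 to 50804 at 48 h. Of 8 macrophage markers 7 were dim in all groups, and summed levels of that list ranged from 81.8 to 90.8 over the 16 arrays. The epithelial list, with 3 of 6 genes dim, summed to 115 to 187 in treated arrays and to 885 to 1043 in untreated ones. Of its 3 tested genes 1 fell at each time, the keratin KRT18 (-4.07 at 6 h), named after its values were seen, and the other 2 did not pass the test. In bulk RNA, fewer cells of a type and less RNA per cell cannot be told apart. The part of these marker shifts in the lysosomal changes against untreated cells was not tested.

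More lysosomal genes fell than rose against untreated cells at every time, although the order at 48 h turned when all probe sets of a gene were averaged, while among all genes rises were the more frequent. At 6 h 7 of the 38 rose and 16 fell, or 60.5% called, against 53.3% of all genes tested (36.6% higher and 16.7% lower). The 7 rises became 3 without untreated array 1, untreated array 4 or 6 h array 4, and 4 without 6 h array 1. At 24 h 5 rose and 12 fell, with 52.1% of all genes called (35.2% higher and 16.9% lower). At 48 h 9 rose and 13 fell, with 57.0% of all genes called (36.0% higher and 21.0% lower). The overall share of members called thus stood near that of all genes, and most of the calls were falls. Their median change was -0.08 at 6 h, -0.09 at 24 h and 0.04 at 48 h, beside 0.09, 0.09 and 0.08 for all genes. The 3 comparisons share the same untreated arrays. At 6 h the 4 treated and 4 untreated arrays did not overlap for 17 members, at 24 h for 16 and at 48 h for 18, against 45.7%, 46.3% and 47.7% of all genes. The split depended on the scaling, since cyclic loess put the median of all genes at -0.0015 at 6 h. Under that scaling 1 rose and 22 fell at 6 h, 1 rose and 22 fell at 24 h, and 7 rose and 18 fell at 48 h. IDS was the one rise left at 6 and 24 h, and the 48 h rises of CLN3 and NEU1 did not pass the test. With array medians subtracted 4 rose and 16 fell at 6 h. With that averaging 16 rose and 12 fell at 48 h, and the median at that time was -0.027. The shares of all genes given above do not apply under these alternatives, for which none were counted.

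**Figure D2:**
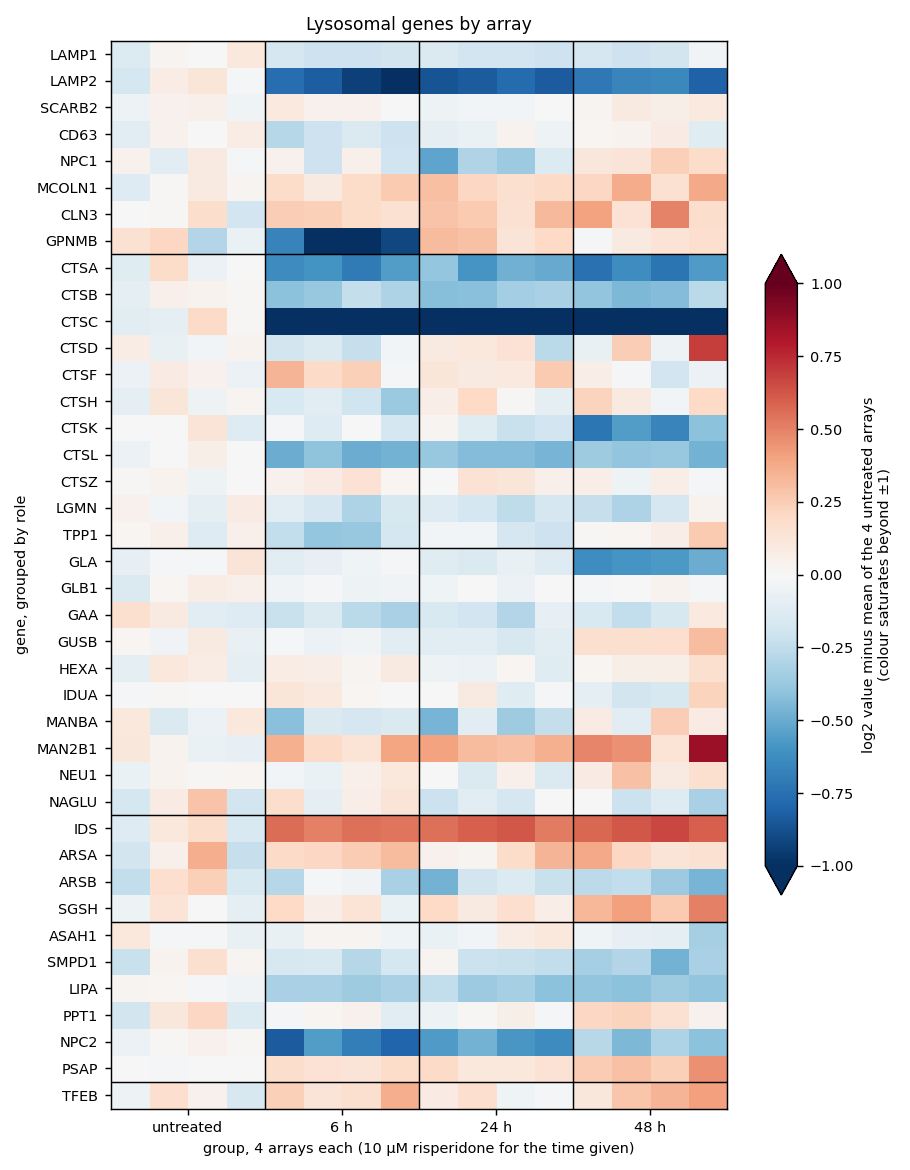
Log2 value of each of the 40 genes in each of the 16 arrays, minus the mean of the 4 untreated arrays (blue lower, red higher, saturating beyond 1 in either direction), with lines between roles. CTSC and LAMP2 are blue in all 12 treated arrays, GPNMB in the 4 arrays at 6 h, CTSK and GLA mainly in those at 48 h, and IDS is red throughout.

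A fall at all 3 times was found in 9 members, namely LAMP1, LAMP2, CTSA, CTSB, CTSC, CTSL, LGMN, LIPA and NPC2. Another 5 rose at all 3 times, namely MCOLN1, CLN3, MAN2B1, IDS and PSAP. Another 8 passed the test at no time, namely SCARB2, CTSD, GLB1, HEXA, NAGLU, ARSA, ASAH1 and PPT1. These results rest on the brightest probe set, and in 6 of the 8 (SCARB2, CTSD, GLB1, HEXA, ASAH1 and PPT1) another bright one passed the test at 1 or more times. The remaining 16 tested members changed at 1 or 2 of the times. The shares of all genes with these patterns over the 3 times were not counted. At each single time 52.1% to 57.0% of all genes tested were called.

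Among the membrane proteins, the 2 LAMP glycoproteins that coat the inner face of the lysosomal membrane fell. LAMP2, which also takes part in autophagy, had log2 values of 9.28, 9.53, 9.57 and 9.43 in untreated arrays. At 6 h the arrays stood at 8.69, 8.63, 8.52 and 8.35, at 24 h at 8.59, 8.62, 8.68 and 8.62, and at 48 h at 8.74, 8.79, 8.81 and 8.64. All 12 treated arrays lay below all 4 untreated ones. LAMP2 changed by -0.91 ± 0.07 at 6 h (adjusted p = 1.62e-08), -0.83 ± 0.07 at 24 h (5.29e-08) and -0.71 ± 0.07 at 48 h (2.54e-07). Its 7 other bright probe sets were lower too, by sizes that ranged from -1.15 to -0.29 at 6 h and from -1.80 to -0.27 at 48 h. LAMP1 fell less, by 0.19 ± 0.05 at 6 h (adjusted p = 0.00504), 0.19 at 24 h and 0.15 at 48 h, and its 48 h call was lost without untreated array 4, 48 h array 2 or 48 h array 3 (adjusted p = 0.0545 to 0.0791).

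MCOLN1, the lysosomal calcium channel, and CLN3, the membrane protein altered in juvenile Batten disease, went the other way. MCOLN1 had 7.15, 7.29, 7.37 and 7.31 in untreated arrays. It stood at 7.46, 7.37, 7.46 and 7.54 at 6 h, 7.58, 7.49, 7.44 and 7.47 at 24 h, and 7.49, 7.65, 7.43 and 7.66 at 48 h. The arrays at 24 and 48 h cleared the untreated range, and one array at 6 h touched its upper end. The rises were 0.18 ± 0.06 at 6 h (adjusted p = 0.0239), 0.22 at 24 h (0.00795) and 0.28 at 48 h (0.00101). The 6 h call was lost without untreated array 1 or 6 h array 4 (adjusted p = 0.0752 and 0.0837). CLN3 rose by 0.21 ± 0.08 at 6 h (adjusted p = 0.0418), 0.26 at 24 h and 0.31 at 48 h. The 6 h call of CLN3 was lost without untreated array 1, 2 or 4, any one 6 h array or 24 h array 2, with adjusted p of 0.0503 to 0.155, and the 24 h call without untreated array 4 (0.0545).

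GPNMB, a glycoprotein of melanosomes and lysosomes whose outer part can be shed, fell at 6 h. At 6 h it had values of 7.24, 6.86, 6.22 and 7.0, against 8.06, 8.12, 7.62 and 7.84 in untreated arrays, a change of -1.08 ± 0.16 (adjusted p = 1.94e-05) and a 2.11-fold lower level. At 24 h the arrays were at 8.23, 8.20, 8.04 and 8.11, and at 48 h at 7.89, 8.0, 8.05 and 8.08, which overlapped the untreated range. The changes at 24 h, 0.23 ± 0.16 (adjusted p = 0.223), and at 48 h, 0.10 ± 0.16 (0.629), did not pass the test. Its 3 other bright probe sets were also lower at 6 h, by -1.39 to -0.82. At 24 h they ranged from -0.21 to 0.44, 1 of them called higher. At 48 h they ranged from -0.70 to 0.26, the lowest of them a called fall. S100B and PMEL, markers of Schwann cells and melanocytes, rose at 6 h, and the summed level of that list of 5 genes, 2 of them dim, was 114 to 122 at 6 h, against 89.2 to 94.9 in untreated arrays.

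CD63, a tetraspanin of late endosomes and lysosomes, fell by 0.21 ± 0.05 at 6 h (adjusted p = 0.00325) and differed by -0.05 at 24 h and 0.01 at 48 h, neither past the test. NPC1, which moves cholesterol out of the lysosome, had 6.54, 6.77, 6.71 and 6.93 at 24 h, against 7.11, 6.96, 7.16 and 7.05 in untreated arrays, with no overlap. It fell by 0.33 ± 0.08 at that time (adjusted p = 0.00208) and differed by -0.08 at 6 h and 0.17 at 48 h, neither past the test. SCARB2, the receptor that carries glucocerebrosidase to lysosomes, differed by -0.03 to 0.07 over the 3 times. Its 3 other bright probe sets ranged from -0.30 to -0.06 at 6 h, 1 of them a called fall, and from -0.34 to -0.22 at 24 h, 2 of them called falls.

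Cathepsins and other peptidases had the highest share of falls among the roles at each time. Of the 10 tested, 7 fell and 1 rose at 6 h, 5 fell at 24 h and 6 fell at 48 h. These falls are 70%, 50% and 60% of the peptidases, against 16.7%, 16.9% and 21.0% of all genes tested. The rise at 6 h is 10%, against 36.6% of all genes tested. CTSC, the dipeptidyl peptidase that activates serine proteases of granules, had 8.52, 8.54, 8.83 and 8.65 in untreated arrays. Its arrays stood at 6.89, 6.69, 6.73 and 6.53 at 6 h, 7.20, 6.91, 7.02 and 6.77 at 24 h, and 6.90, 6.85, 6.70 and 6.56 at 48 h. Every treated array lay more than 1 log2 unit below every untreated one. The changes of -1.93 ± 0.10 (adjusted p = 4.89e-11), -1.66 ± 0.10 (3.96e-10) and -1.88 ± 0.10 (5.56e-11) were 3.80-fold, 3.16-fold and 3.69-fold lower levels, the largest among the members. CTSC and, at 6 h, GPNMB were the only members past 2-fold against untreated cells.

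CTSA, a carboxypeptidase that also protects the sialidase NEU1 and beta-galactosidase, had values of 7.67, 7.70, 7.59 and 7.74 at 6 h, against 8.18, 8.48, 8.24 and 8.29 in untreated arrays. It fell by 0.62 ± 0.07 at 6 h (adjusted p = 4.85e-07), 0.49 at 24 h (7.92e-06) and 0.67 at 48 h (1.48e-07), with no overlap at any time. Of its partners, NEU1 passed the test at 48 h alone and GLB1, which encodes beta-galactosidase, differed by -0.04, -0.03 and 0 at 6, 24 and 48 h. CTSL, a cysteine endopeptidase, fell by 0.47, 0.43 and 0.40 at 6, 24 and 48 h (adjusted p = 8.43e-08, 2.42e-07 and 3.84e-07), and CTSB, a cysteine peptidase that cuts within and at the end of chains, by 0.33, 0.38 and 0.39 (6.20e-05, 1.60e-05 and 8.73e-06). LGMN, the asparagine-specific endopeptidase that matures some cathepsins, fell by 0.19, 0.18 and 0.17 at the same times. The LGMN call at 6 h was lost without untreated array 1 or 4 or 6 h array 3, and also with all probe sets averaged (-0.10). That at 24 h was lost without untreated array 1 or 4 or 24 h array 2, 3 or 4. That at 48 h was lost without untreated array 1, 2 or 4, 6 h array 2, 24 h array 2 or 4, or 48 h array 1, 2 or 3, and over the 3 times these adjusted p ranged from 0.0501 to 0.149.

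Other peptidases passed the test at 1 time. CTSK, a collagen-cutting cysteine peptidase, had 5.86, 6.02, 5.92 and 6.17 at 48 h, against 6.58, 6.59, 6.71 and 6.45 in untreated arrays, and fell by 0.59 ± 0.07 (adjusted p = 2.96e-06). At 6 and 24 h it differed by -0.08 and -0.13 and overlapped the untreated range. At 6 h the aminopeptidase CTSH fell by 0.21 ± 0.08 (adjusted p = 0.0298) and the tripeptidyl peptidase TPP1 by 0.30 ± 0.07 (0.00166), whereas CTSF, a cysteine peptidase, rose by 0.19 ± 0.07 (0.0394). The TPP1 fall rested on its brightest probe set, since 4 other bright ones ranged from -0.17 to 0.09 and their mean with it was 0.01. The CTSH call was lost without untreated array 2 or 4 or 6 h array 3 or 4 (adjusted p = 0.0514 to 0.110) and with all probe sets averaged (-0.04), and that of CTSF without untreated array 1 or 4 or 6 h array 1, 2 or 3 (0.0688 to 0.137). CTSD, the main aspartic protease of lysosomes, differed by -0.15, 0.02 and 0.20 at 6, 24 and 48 h and did not pass the test, with 48 h arrays spread from 5.51 to 6.28.

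**Figure D3:**
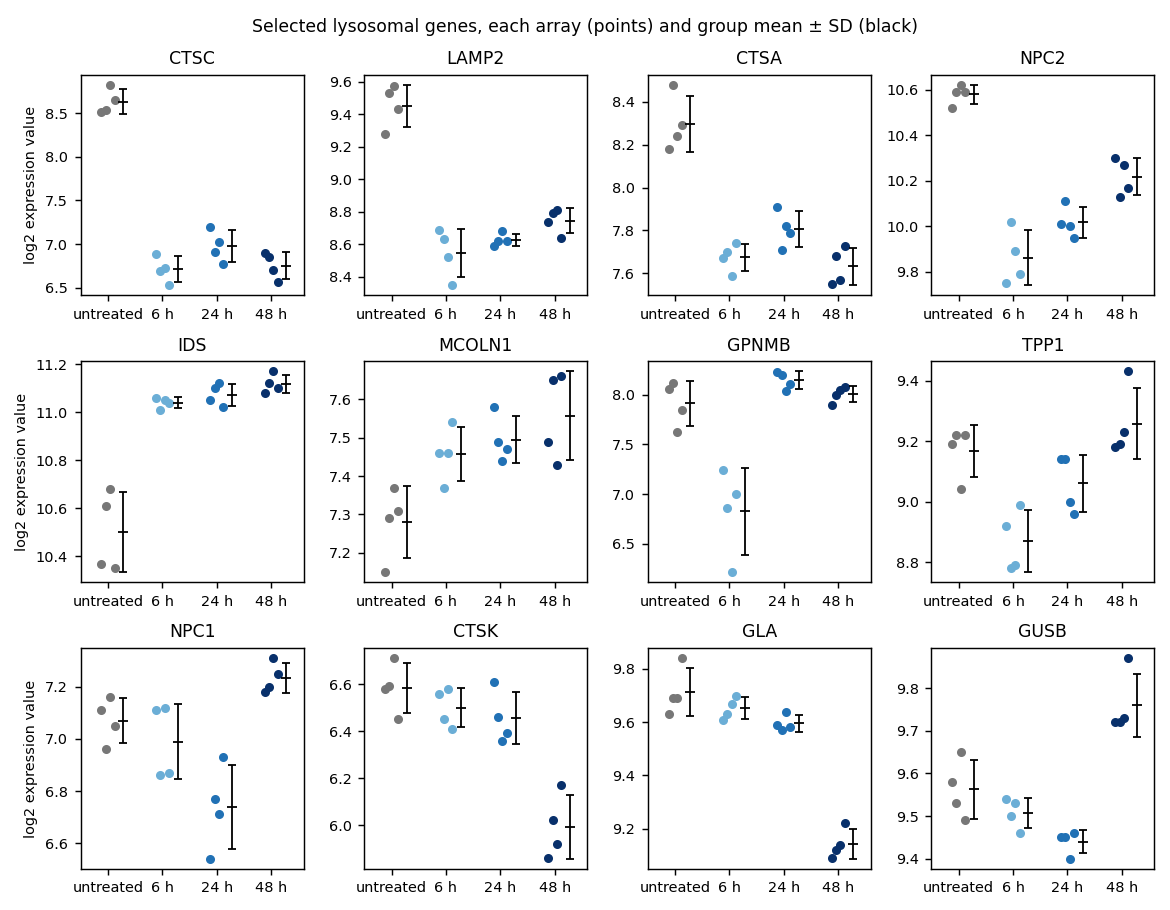
Log2 value of 12 members in each array (points), by group, with the group mean ± SD beside them (black, n = 4). CTSC, LAMP2, CTSA and NPC2 are lower and IDS higher in every treated array. By the brightest probe set, the one shown, GPNMB is low at 6 h only, and CTSK and GLA are low at 48 h only.

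Of the 9 glycosidases tested, 6 passed the test at 1 or more times, a share that was not counted over all genes. At 6 h 1 rose and 2 fell, at 24 h 1 rose and 2 fell, and at 48 h 3 rose and 1 fell. Rises were 11.1%, 11.1% and 33.3% of the glycosidases at 6, 24 and 48 h, against 36.6%, 35.2% and 36.0% of all genes tested. Falls were 22.2%, 22.2% and 11.1%, against 16.7%, 16.9% and 21.0%. GLA, the alpha-galactosidase deficient in Fabry disease, had 9.09, 9.12, 9.14 and 9.22 at 48 h, against 9.63, 9.69, 9.69 and 9.84 in untreated arrays. It fell by 0.57 ± 0.05 at 48 h (adjusted p = 2.26e-08), with every 48 h array below every other array. Its 2 other probe sets were lower at that time by -0.52 and -0.49. At 24 h 1 of those 2 was called lower (-0.32), while the brightest differed by -0.12 and did not pass the test (adjusted p = 0.0511). GUSB, the beta-glucuronidase, went both ways: -0.12 ± 0.05 at 24 h (adjusted p = 0.0372) and 0.20 ± 0.05 at 48 h (0.00163). Its 48 h arrays held 9.72, 9.72, 9.73 and 9.87, against 9.58, 9.53, 9.65 and 9.49 in untreated arrays, with no overlap. The 24 h call of GUSB was lost without untreated array 1 or 3 or any one 24 h array (adjusted p = 0.0530 to 0.111).

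MAN2B1, an alpha-mannosidase, rose by 0.27 ± 0.11 at 6 h (adjusted p = 0.0427), 0.34 at 24 h (0.0128) and 0.48 at 48 h (0.000921), where its arrays spread from 5.56 to 6.28, against 5.34 to 5.54 in untreated arrays. Its 6 h call was lost without untreated array 2, 3 or 4, 6 h array 1 or 4, 24 h array 2, 3 or 4, or 48 h array 1 or 2 (adjusted p = 0.0501 to 0.116). MANBA, the beta-mannosidase, fell by 0.22 ± 0.09 at 6 h (adjusted p = 0.0497) and 0.29 ± 0.09 at 24 h (0.0119), and its 6 h call was lost without untreated array 1, 3 or 4, any one 6 h array, 24 h array 3 or 4, or 48 h array 1 or 4 (0.0523 to 0.171). The second MANBA probe set was not called at 6 h (-0.075) or 24 h (-0.14) and was called higher at 48 h (0.35). With both averaged the 6 h change of MANBA was -0.15 (adjusted p = 0.0514). GAA, the glucosidase deficient in Pompe disease, fell by 0.24 ± 0.08 at 6 h (adjusted p = 0.0170), a fall that its second probe set, at 0.16, did not show. With both averaged the 6 h change was -0.04 (adjusted p = 0.609), and at 24 h the second was called higher (0.27). The 6 h call of GAA by its brightest probe set was lost without untreated array 1 or 2 or 6 h array 4 (adjusted p = 0.0508 to 0.0630). NEU1, the lysosomal sialidase, rose by 0.16 ± 0.06 at 48 h (adjusted p = 0.0335), a call lost without untreated array 1 or 48 h array 2 or 4 (0.0560 to 0.126). The NEU1 call was also lost with array medians subtracted (adjusted p = 0.0655), repeated quantile normalization (0.0882), cyclic loess (0.575) and the 8 arrays alone (0.0551). HEXA, the alpha subunit of hexosaminidase, differed by -0.05 to 0.07, and NAGLU, a heparan sulfate glucosaminidase, by -0.17 to 0.07.

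Of the 4 sulfatases, IDS, which removes sulfate from iduronate in dermatan and heparan sulfate, had the largest rise of any member against untreated cells. Its untreated arrays held 10.37, 10.61, 10.68 and 10.35. The treated arrays held 11.06, 11.01, 11.05 and 11.04 at 6 h, 11.05, 11.10, 11.12 and 11.02 at 24 h, and 11.08, 11.12, 11.17 and 11.10 at 48 h, all above the untreated ones. The rises were 0.54 ± 0.06 (adjusted p = 1.84e-06), 0.57 ± 0.06 (9.07e-07) and 0.61 ± 0.06 (2.54e-07), or 1.45-fold, 1.48-fold and 1.53-fold. Its 4 other bright probe sets rose at each of these times. SGSH, the heparan N-sulfatase, had 5.80, 5.88, 5.73 and 5.97 at 48 h, against 5.42, 5.61, 5.47 and 5.38 in untreated arrays, and rose by 0.38 ± 0.07 (adjusted p = 0.000138). With its probe sets averaged the SGSH change was 0.13 (adjusted p = 0.0634). ARSB, which removes sulfate from dermatan sulfate, fell by 0.34 ± 0.11 at 48 h (adjusted p = 0.0134), a call lost without untreated array 3 (0.0542) and with its probe sets averaged (-0.13). ARSA, the sulfatase of sulfatide, differed by 0.15 to 0.24 and passed the test at no time.

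Among the lipid-handling members, 2 that serve cholesterol release fell at every time. NPC2, the soluble partner that hands cholesterol to NPC1, had 10.52, 10.59, 10.62 and 10.59 in untreated arrays. It stood at 9.75, 10.02, 9.89 and 9.79 at 6 h, 10.01, 10.11, 10.00 and 9.95 at 24 h, and 10.30, 10.13, 10.27 and 10.17 at 48 h, below the untreated range throughout. Its changes were -0.72 ± 0.06 (adjusted p = 2.55e-08), -0.56 ± 0.06 (5.32e-07) and -0.36 ± 0.06 (5.61e-05). LIPA, the acid lipase that splits cholesteryl esters, had 9.33, 9.33, 9.30 and 9.33 at 6 h, against 9.68, 9.67, 9.64 and 9.62 in untreated arrays. It fell by 0.33 ± 0.04 (adjusted p = 3.64e-06), 0.34 (2.77e-06) and 0.39 (3.80e-07) at 6, 24 and 48 h.

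PSAP, the precursor of the saposins that help sphingolipid hydrolases, rose by 0.16 ± 0.05 at 6 h (adjusted p = 0.0101), 0.14 at 24 h (0.0221) and 0.31 at 48 h (2.47e-05). Its 24 h call was lost without 24 h array 1 (adjusted p = 0.0687). That 24 h call was also lost with array medians subtracted (adjusted p = 0.0811), repeated quantile normalization (0.0762) and cyclic loess (0.256). SMPD1, the acid sphingomyelinase, fell by 0.19 ± 0.08 at 6 h (adjusted p = 0.0427) and 0.36 ± 0.08 at 48 h (0.000704). Its 6 h call was lost without untreated array 2, 3 or 4, any one 6 h array or 48 h array 1 (adjusted p = 0.0505 to 0.140), and its 48 h arrays, at 7.33, 7.37, 7.19 and 7.34, lay below the untreated ones at 7.44 to 7.82. ASAH1, the acid ceramidase, and PPT1, which removes palmitate from proteins, differed by -0.14 to 0.02 and -0.01 to 0.16. By these brightest probe sets neither passed the test. The 4 other bright ASAH1 probe sets ranged from 0.04 to 0.33 at 6 h, 1 of them called higher. At 24 h they ranged from 0.05 to 0.295, 3 of them called higher, and at 48 h from -0.16 to 0.135, none called. Of 5 other bright PPT1 probe sets 2 were called higher at 48 h.

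TFEB itself had 4.86, 5.08, 4.95 and 4.75 in untreated arrays, 5.15, 5.04, 5.07 and 5.27 at 6 h, 4.99, 5.08, 4.87 and 4.90 at 24 h, and 5.02, 5.19, 5.25 and 5.32 at 48 h, and the groups overlapped. It rose by 0.22 ± 0.08 at 6 h (adjusted p = 0.0248) and 0.28 ± 0.08 at 48 h (0.00495), and differed by 0.05 at 24 h (0.622). The 6 h call was lost without untreated array 1 or 4 or 6 h array 4 (adjusted p = 0.0593 to 0.0916).

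**Figure D4:**
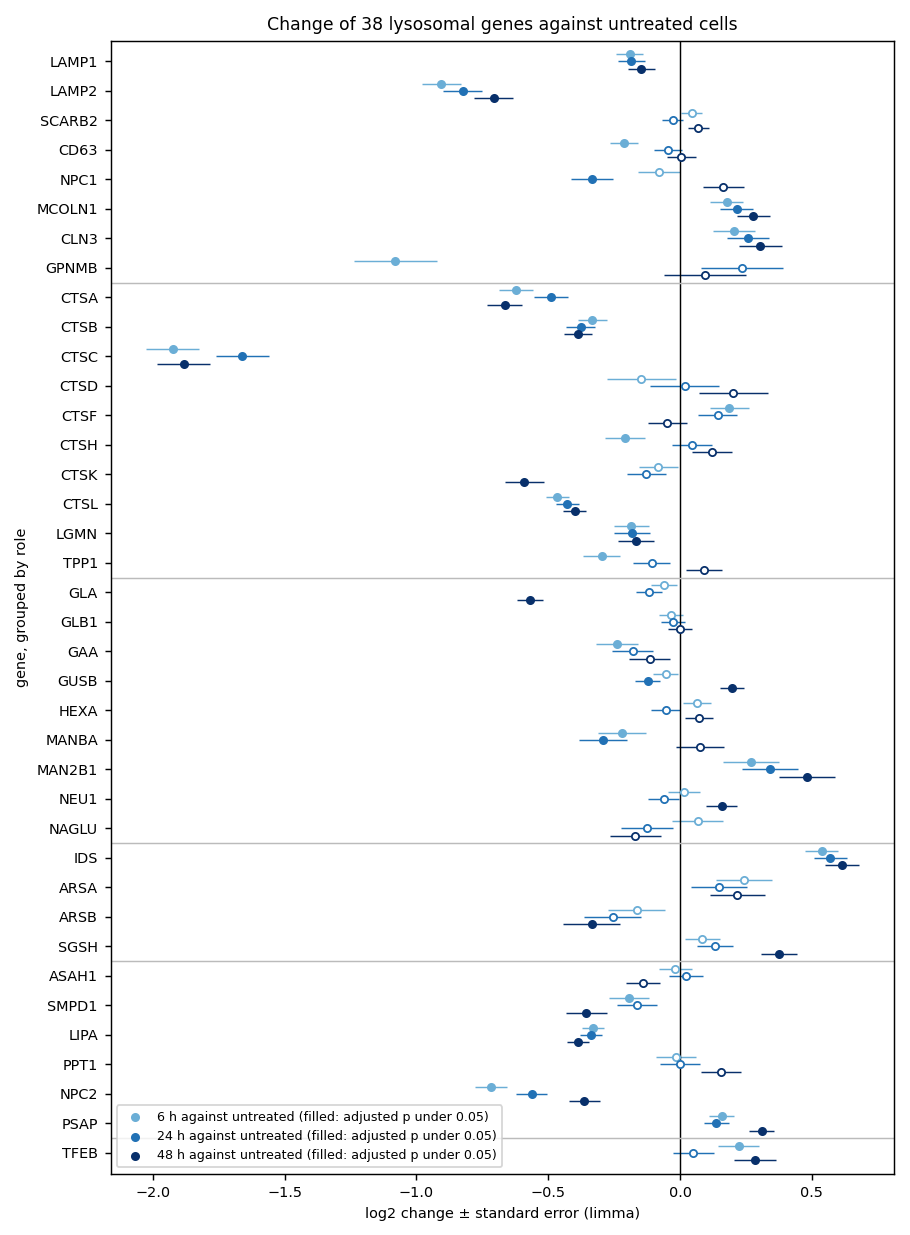
Log2 change of the 38 tested members against untreated cells at 6, 24 and 48 h, with the standard error from limma (filled points: adjusted p under 0.05). CTSC lies near -1.93 to -1.66, LAMP2 between -0.91 and -0.71, and IDS between 0.54 and 0.61, while most other members lie within 0.5 of 0.

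Comparisons between the treated times set treated arrays against each other, while the untreated arrays still entered the fit's estimate of the spread. The markers moved less between these times than against untreated cells. Of the 18 mesenchymal markers 2 rose at 24 h over 6 h, 2 rose and 4 fell at 48 h over 24 h, and 3 rose and 4 fell at 48 h over 6 h. Of the 15 adrenergic markers 2 rose at 24 h over 6 h, 4 rose and 1 fell at 48 h over 24 h, and 7 rose at 48 h over 6 h. The adrenergic rises were 13.3%, 26.7% and 46.7% of that list, against 1.55%, 13.5% and 16.7% of all genes tested. The mesenchymal rises were 11.1%, 11.1% and 16.7% of theirs. The mesenchymal falls at 48 h, over 24 h and over 6 h, were both 22.2%, against 15.1% and 17.0% of all genes tested. The part of these shifts in the changes between times was not tested. Between 24 h and 6 h GPNMB alone of the 38 members changed, against 2.40% of all genes tested (1.55% higher and 0.855% lower). The arrays of those times did not overlap for 4 members, against 11% of all genes. The 24 h arrays of GPNMB, at 8.04 to 8.23, stood above its 6 h arrays, at 6.22 to 7.24, with no overlap, a rise of 1.31 ± 0.16 (adjusted p = 0.000251) that held in each alternative and with each array left out. Of the 13680 genes it had the highest change, and 2 genes in all changed 2-fold.

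Between 48 h and 24 h 9 members rose and 2 fell, with 28.6% of all genes called (13.5% higher and 15.1% lower). The 2 falls became 4 without untreated array 1 or 48 h array 1. The arrays of these times did not overlap for 12 members, against 30.4% of all genes. NPC1 rose most, by 0.50 ± 0.08 (adjusted p = 0.000195), with 7.18, 7.20, 7.31 and 7.25 at 48 h, against 6.54, 6.77, 6.71 and 6.93 at 24 h. The others that rose were MANBA (0.37), GUSB (0.32), SGSH (0.24), TFEB (0.23), NEU1 (0.22), NPC2 (0.20), TPP1 (0.20) and PSAP (0.17). The falls were those of CTSK, by 0.46 ± 0.07 (adjusted p = 0.000205), and GLA, by 0.45 ± 0.05 (4.81e-06). For CTSK the 48 h arrays reached 6.17 at most, against a lowest 24 h array of 6.36. The TFEB call was lost without 24 h array 1, 3 or 4 or 48 h array 2, 3 or 4 (adjusted p = 0.0525 to 0.0966), and that of TPP1 without array 3 or 4 of either time (0.0606 to 0.128). The NPC2 call was lost without 24 h array 4 or 48 h array 1 or 3 (adjusted p = 0.0531 to 0.0627). With probe sets averaged the changes of NPC2 and SGSH were 0.081 and 0.0019 and did not pass the test.

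Between 48 h and 6 h 12 members rose and 3 fell, with 33.6% of all genes called (16.7% higher and 17.0% lower). The arrays of the 2 times did not overlap for 14 members, against 33.0% of all genes. The largest rises were those of GPNMB (1.18 ± 0.16), TPP1 (0.39 ± 0.07) and NPC2 (0.36 ± 0.06), and others were those of CTSH (0.33 ± 0.08), CD63, NPC1, SGSH, MANBA, GUSB and PSAP. GLA fell by 0.51 ± 0.05 (adjusted p = 8.98e-07), CTSK by 0.51 ± 0.07 (6.87e-05) and CTSF by 0.23 ± 0.07 (0.0194). The rises of CTSD, 0.35 ± 0.13 (adjusted p = 0.0489), and LAMP2, 0.20 ± 0.07 (0.0458), were fragile. That of CTSD was lost without any one untreated or 6 h array, 24 h array 1, 2 or 3, or 48 h array 2 or 4 (adjusted p = 0.0510 to 0.153). That of LAMP2 was lost without untreated array 4, 6 h array 3 or 4, any one 24 h array, or 48 h array 1, 2 or 3 (adjusted p = 0.0538 to 0.163), and turned to -0.089 with its probe sets averaged. The CTSF call was lost without 6 h array 1 or 3 or 48 h array 3 (adjusted p = 0.0537 to 0.0711), and that of NPC1 without 6 h array 2 or 4 or 48 h array 3 (0.0686 to 0.0837). The MANBA call was lost without 6 h array 1 or 48 h array 3 (adjusted p = 0.0646 and 0.0666), and that of PSAP without 6 h array 3 or 48 h array 4 (0.0538 and 0.0556). With probe sets averaged the rises of TPP1 (0.096) and SGSH (0.02) did not pass the test.

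Most subunits of the proton pump that acidifies the compartment rose. Of 18 subunits and accessory proteins tested, 13 rose at 6 h, 14 at 24 h and 16 at 48 h, with medians of 0.21, 0.20 and 0.28, beside 7, 5 and 9 of the 38 listed genes. These are 72.2%, 77.8% and 88.9% of the subunits, against 36.6%, 35.2% and 36.0% of all genes tested. Under cyclic loess 7 rose at 6 h and 5 at 24 h, and the shares of all genes under it were not counted. ATP6V1G2, a stalk subunit found mainly in neurons, rose by 1.27 ± 0.08 at 6 h (adjusted p = 1.34e-09) and ATP6V1B2, a subunit of the pump's catalytic head, by 0.60 ± 0.05 (1.48e-08). ATP6V0A2, a membrane subunit, rose by 0.81 ± 0.07 at 48 h (adjusted p = 4.82e-08), and ATP6V0E1, a small membrane subunit, fell by 0.36 ± 0.05 at that time (7.07e-06).

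Lysosomal enzymes outside the list went both ways, with 3 rises and 4 falls among 21 tested at 6 h and 5 rises and 8 falls at 48 h. All genes tested had 36.6% rises and 16.7% falls at 6 h, and 36.0% and 21.0% at 48 h. DPP7, a dipeptidyl peptidase, rose by 0.60 ± 0.06 at 6 h and 0.75 ± 0.06 at 48 h, while CTSV fell by 0.80 ± 0.07 and CTSO by 0.64 ± 0.10 at 48 h. Among 24 other membrane proteins 10 (41.7%) rose and 3 (12.5%) fell at 6 h, shares near those of all genes. The largest rises were those of the amino acid transporters SLC36A1 (0.81) and SLC38A9 (0.53). Of 13 delivery genes 3 (23.1%) rose and 4 (30.8%) fell at 6 h. IGF2R, the large mannose 6-phosphate receptor, fell by 0.42 ± 0.08 at 6 h and 0.53 ± 0.08 at 24 h, and differed by 0 at 48 h (adjusted p = 1). M6PR, the small one, fell by 0.17 at 6 h (adjusted p = 0.00760), 0.20 at 24 h (0.00239) and 0.36 ± 0.05 at 48 h (6.69e-06).

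The regulators of the family went both ways. RRAGD, a GTPase that brings mTORC1 to lysosomes and is a known target of TFEB-type factors, rose by 1.00 ± 0.06, 1.18 ± 0.06 and 1.56 ± 0.06 at 6, 24 and 48 h (adjusted p = 1.42e-10, 1.93e-11 and 4.77e-13). RRAGB, its relative, rose by 0.49, 0.58 and 0.72. MITF, a relative of TFEB, fell by 0.92 ± 0.08, 0.93 and 0.95 at the same times (adjusted p = 2.90e-08, 2.42e-08 and 1.41e-08). In all, 8 regulators of 19 (42.1%) rose and 2 (10.5%) fell at 6 h, beside 36.6% and 16.7% of all genes. At 48 h 9 (47.4%) rose and 3 (15.8%) fell, beside 36.0% and 21.0% of all genes. The protease inhibitor SERPINB1 fell by 0.53, 0.43 and 0.53 ± 0.05 at 6, 24 and 48 h.

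**Figure D5:**
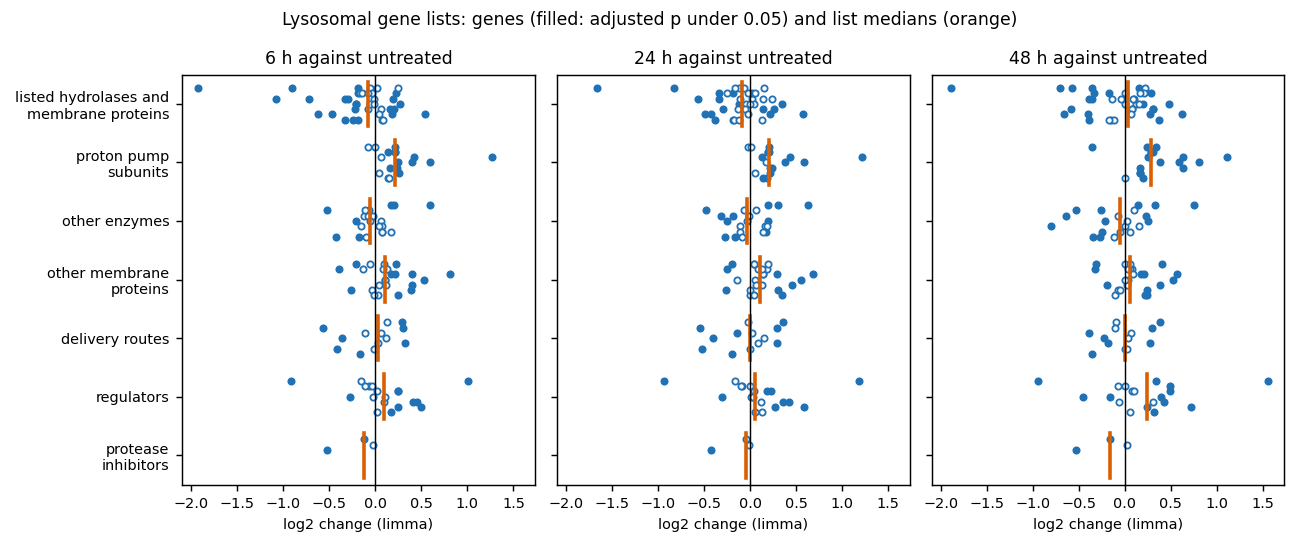
Log2 change of each tested gene against untreated cells at 6, 24 and 48 h (points, filled where the adjusted p is under 0.05), in the listed genes and in 6 further lysosomal lists, with list medians in orange. The median of the proton pump lies at 0.20 to 0.28, and that of the listed hydrolases and membrane proteins at -0.09 to 0.04.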

How the data were processed

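RNA of SK-N-SH cells was hybridised to 16 Affymetrix Human Genome U219 arrays, 4 in each of 4 groups. The authors deposited log2 values of 49386 probe sets, summarised by RMA per the submitters' processing notes, with values from 2.57 to 13.98 and array medians of 4.5 to 4.62; the background and scan settings behind them were not stated. Probe sets were named from the platform annotation, and 45253 with 1 symbol, without control probes, gave 18239 genes. The number of arrays limits the precision. The members and lists were chosen with earlier results of these data known, and any member may be named; of each further list, names were drawn at each time from the 2 largest rises and 2 largest falls past the threshold with no overlap, and of the marker lists from a chosen few. Genes in the lowest 25% by mean (under 3.65) were left out. limma 3.58.1 in R 4.3.3 (lmFit, eBayes) fitted all 16 arrays at once, and p-values were adjusted by Benjamini-Hochberg over 13680 genes in each of 6 comparisons. The fit was tested on simulated data. The alternatives averaged all probe sets of a gene, or used no filter or a 50% filter, 3 scalings, trend and robust eBayes, a replicate block, the 8 arrays of a comparison alone, and each array left out. No 2 arrays were alike, with at most 4.55% of values identical between any pair.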

Additional observations from a re-analysis of the deposited data

Results flagged for a closer look

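Values were rounded to 2 decimals and hold ties, so the chance rate of about 1 in 20 for untied values is only a rough guide here. In 10 of 160 groups of 4 arrays, 1 array stood apart from the others relative to the range of the 4. These were LAMP1 (11.87), CTSD (5.32), GUSB (9.40) and SMPD1 (7.69) at 24 h, MANBA (5.90), SMPD1 (7.38) and LIPA (9.30) at 6 h, GUSB (9.87) at 48 h, and TPP1 (9.04) and PSAP (11.55) in untreated cells, all as log2 values. The SMPD1 array at 24 h lay inside the untreated range of 7.44 to 7.82, and the other 3, at 7.42 to 7.45, lay around its lower end. Some gaps were small, as for LIPA at 6 h (9.30 against 9.33 in the rest) and PSAP in untreated cells (11.55 against 11.57 in the rest).

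Some changes against untreated cells differed between times by the test of the difference itself. From 24 h over 6 h this held for GPNMB (1.31). From 48 h over 24 h it held for NPC1 (0.50), MANBA (0.37), GUSB (0.32), SGSH (0.24), TFEB (0.23), NEU1 (0.22), NPC2 (0.20), TPP1 (0.20), PSAP (0.17), GLA (-0.45) and CTSK (-0.46). From 48 h over 6 h it held for GPNMB (1.18), TPP1 (0.39), NPC2 (0.36), CTSD (0.35), CTSH (0.33), MANBA (0.29), SGSH (0.29), GUSB (0.25), NPC1 (0.24), CD63 (0.22), LAMP2 (0.20), PSAP (0.15), CTSF (-0.23), CTSK (-0.51) and GLA (-0.51).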

How the results depend on the processing

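Of the members called at 6, 24 and 48 h against untreated cells, 11 of 23, 11 of 17 and 16 of 22 kept their call in every alternative and with each array left out, and between times 1 of 1 (24 h over 6 h), 7 of 11 (48 h over 24 h) and 7 of 15 (48 h over 6 h). CTSC, LAMP2, CTSA, CTSB, CTSL, LIPA, NPC2 and IDS did so at all 3 times. With all probe sets of a gene averaged, 16 members rose and 12 fell at 48 h with a median of -0.027, the TPP1 change at 6 h turned to 0.011 and that of LAMP2 at 48 h over 6 h to -0.089; 2 members rose at 24 h over 6 h, 4 fell at 48 h over 24 h (median 0.0094) and 6 fell at 48 h over 6 h (median 0.039). With the dimmest 50% of genes left out, fewer members were tested, the medians were -0.17 at 6 h, -0.12 at 24 h and -0.048 at 48 h, and 6 fell at 48 h over 24 h. With array medians subtracted 4 rose at 6 h, and the 24 h median was -0.12. Under cyclic loess 1 rose at 6 h (median -0.25), 1 rose and 22 fell at 24 h (median -0.19), the 48 h median was -0.061, 4 fell at 48 h over 24 h and the median at 48 h over 6 h was 0.085. Under it 7 and 5 pump subunits rose at 6 and 24 h, and 1 fell at 6 h, as also under repeated quantile normalization. Trend and robust eBayes gave 2 rises at 24 h over 6 h and 4 falls at 48 h over 24 h, and the 8 arrays alone also 4 such falls. With a replicate block, 6 rose and 14 fell at 6 h, 5 and 13 at 24 h, and 10 and 13 at 48 h; same-numbered arrays correlated over 0.1 in 8 of 24 pairs (r = -0.152 to 0.181), so the numbers were not taken as pairs.

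Leaving out 1 array gave 3 to 7 rises and 12 to 16 falls at 6 h (median -0.12 to -0.059), 4 to 6 and 10 to 14 at 24 h (-0.093 to -0.053), and 8 to 11 and 11 to 14 at 48 h (0.0054 to 0.04). It gave 1 rise at 24 h over 6 h (median 0.00042 to 0.02), 6 to 9 rises and 2 to 4 falls at 48 h over 24 h (0.04 to 0.07), and 9 to 12 and 2 to 4 at 48 h over 6 h (0.060 to 0.093). The pump counts were 11 to 14, 13 to 14 and 15 to 16. Counts of the further lists moved by over 1.5 times in 41 of 750 alternatives, in 18 of 30 counts. Shares of all genes called were not counted under any alternative or with an array left out. The causes were not tested. Only RMA values were used, so other background corrections and scan batches were not run.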
